A study of Mus musculus with 12 samples.

Results

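The genes of the cytoplasmic ribosomal proteins were followed through heart formation in the mouse. Members were the rows of the deposited count table named Rpl or Rps with a number and at most 1 letter, together with Rplp0, Rplp1, Rplp2 and Rpsa, without the rows named as pseudogenes (-ps) and with at least 100 counts summed over all libraries. Of 48709 gene rows 80 met the rule, 48 of the large and 32 of the small subunit. Cardiogenic regions, the part of the embryo that gives rise to the heart, had been dissected from mouse embryos at 4 stages named for the embryonic day: E8 and E8.5, when the first heart tube forms, E9.5, when it loops, and E14, when the chambers are formed. Total RNA was sequenced with 3 libraries per stage, 12 in all. The labels name no genotype, strain, sex or treatment, and none says whether libraries came from separate litters or from pooled embryos. The p-values therefore reflect the variation among these libraries alone, which may be technical. The series as a whole concerns a long non-coding RNA and DNMT3B. The 8 heart muscle markers tested, among them Tnnt2 and Nkx2-5, had counts in every stage.

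The ribosome joins ribosomal RNAs with 1 copy of most ribosomal proteins in a small subunit, which reads the mRNA, and a large subunit, which forms the peptide bond. Ribosomal protein mRNAs typically begin with a short pyrimidine run, the 5′ terminal oligopyrimidine or TOP motif, through which their translation follows growth signals from the kinase mTOR. The introns of many of these genes also encode small nucleolar RNAs (snoRNAs), which guide the modification of ribosomal RNA. Ribosomal proteins that lie outside ribosomes, RPL5 and RPL11 above all, can stabilise p53.

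The family took 1.496% to 2.70% of all counts of a library. At E8 the share was 2.15%, 2.30% and 2.25% in replicates 1 to 3, and at E8.5 it was 1.77%, 1.496% and 1.97%. At E9.5 it was 2.36%, 2.52% and 2.70%, and at E14 1.91%, 1.79% and 1.73%. The E9.5 libraries were the highest and did not overlap any other stage, while E8.5 and E14 overlapped. This holds for the member rows alone. The -ps rows took a further 0.920% to 0.977% at E8 and 0.791% to 0.906% at E9.5, and with them added these 2 stages overlapped. Counts of small RNAs inside members are part of all family shares given here. Members of the large subunit supplied 60.3% to 61.4% of the family counts in every library. The 77 genes of the mitochondrial ribosome, a separate protein set, took 0.16% to 0.22%. Without the rows of small structural RNAs (snoRNA, snRNA and the like) in the total, the E9.5 libraries were again the highest, with a family share of 2.99% to 3.47%. E8 followed with 2.70% to 2.89%, E14 had 2.22% to 2.47% and E8.5 had 1.79% to 2.49%. In bulk tissue fewer cells of a type and less RNA per cell cannot be told apart.

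**Figure D1:**
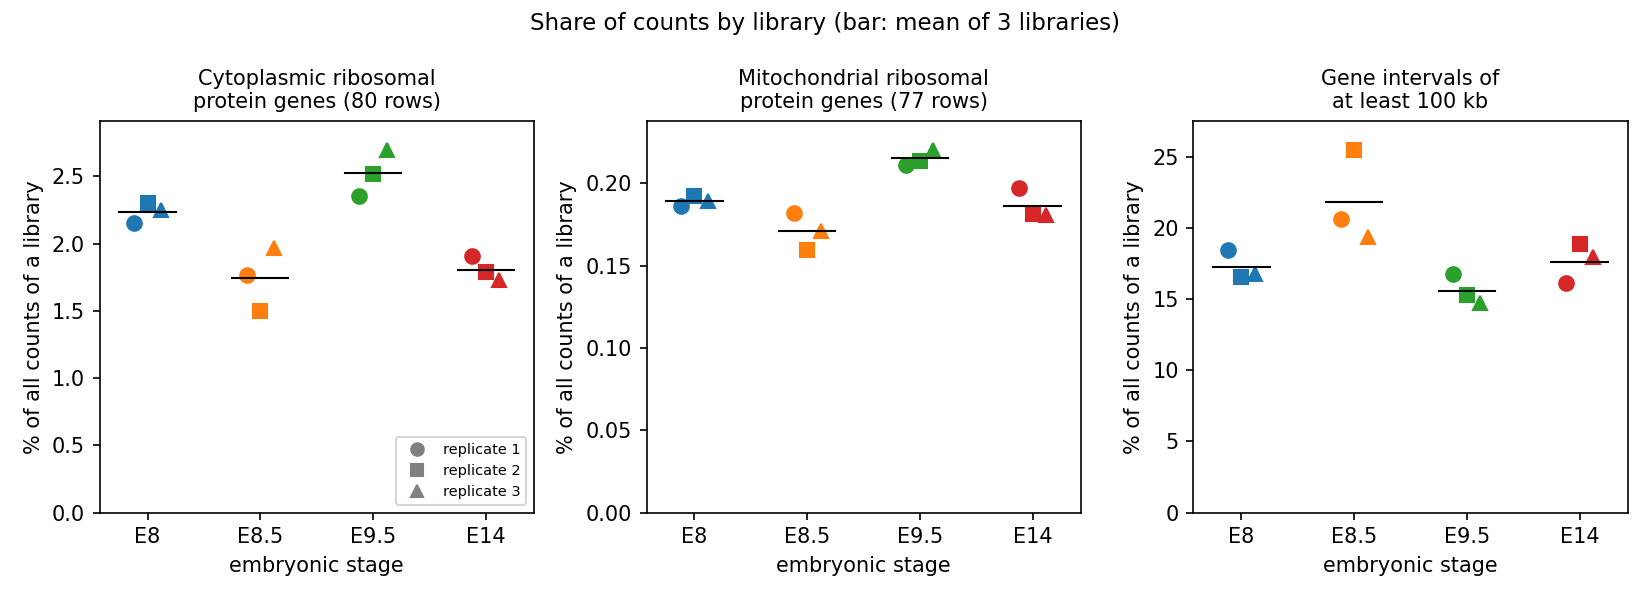
Share of counts per library (y axis, % of all counts) by embryonic stage for the 80 cytoplasmic ribosomal protein genes, the 77 mitochondrial ribosomal protein genes and gene intervals of at least 100 kb, with 1 point per library, the shape giving the replicate and the bar the mean of 3. The cytoplasmic family was highest at E9.5 (2.36% to 2.70%), and E8.5 replicate 2 combined its lowest value (1.496%) with the highest share of long genes (25.5%).

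The 12 libraries held 56574386 to 122785175 counts. Replicate 2 of E8.5 stood apart for the family: all 80 members had their lowest E8.5 value there, and 74 had their lowest of all 12 libraries. Gene intervals of at least 100 kb took 25.5% of its counts against 20.6% and 19.4% in the other two E8.5 libraries and 14.7% to 18.9% at the other stages. Replicate 3 of E8.5, where 76 members had their highest E8.5 value, held 1657 CPM (the count scaled to the size of its library) of 8 visceral endoderm and liver markers against 55.3 and 150 CPM in the other two. The part of these values in the results was not tested. The 8 erythroid markers summed to between 543 and 1200 CPM in the 6 libraries of E8 and E8.5. They reached between 4200 and 10717 CPM at E9.5 and between 10588 and 35306 at E14, and their part was not tested either. The 8 heart muscle markers summed to between 18246 and 18477 CPM at E8, 14127 and 23586 at E8.5, 13541 and 15235 at E9.5, and 19193 and 22074 at E14. Their sum was thus low at E9.5, where the family share was highest, although E8.5 replicate 1 lay in the same range. The part of this shift in the family's rise and fall was not tested.

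All 80 members passed the filter on low counts. Their mean level over the 12 libraries ran from 0.286 to 712 CPM with a median of 242, and 64 of them were among the 1000 most abundant of 28846 genes tested. Per kilobase of annotated exon the order of levels was led by Rplp1 (755 CPM per kb), Rplp0 (429), Rps2 (362) and Rps15 (349). RPLP0 and RPLP1, with RPLP2, build the stalk that recruits elongation factors, RPS2 lies near the mRNA entry path and RPS15 near the decoding site. Rplp2, the stalk partner of Rplp1, stood at 78.4 CPM per kb. The divisor is the union of all annotated exons, 499 bases for Rplp1 and 2072 for Rplp2, with mean levels of 377 and 162 CPM. Rows may also hold counts of small RNAs in introns, so this order is rough. At the low end, Rpl3l, a paralogue of Rpl3 known from striated muscle, had 0.174 CPM per kb, followed by Rps4l at 29.8 and Rpl35a at 31.5. Rpl3l was the member just inside the threshold, with 324 counts, and the next was Rps4l with 31972. Just outside lay Rpl10l with 3 counts and Rpl39l with 95. RefSeq and GENCODE class Rps4l and Rpl6l as pseudogenes, and the other 78 members as protein-coding.

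From E8 to E8.5 no member passed the test at an adjusted p under 0.05, where edgeR called 0.891% of all genes higher and 0.291% lower. The values nonetheless leaned one way: 79 of 80 members had a negative log2 fold change, with a median of −0.38 (all genes 0.02), 72 had an unadjusted p under 0.05 (28.1% of all genes), and 67 had all 3 E8.5 libraries below all 3 E8 libraries, against 13.5% of all genes. The adjusted p-values began at 0.0511. The lowest were those of Rpl37, a small zinc-binding protein of the large subunit, and Rps27, a zinc-binding protein of the small one. Rpl37 measured 123, 133 and 134 CPM at E8 and 89.5, 75.9 and 107 at E8.5, a difference of −0.51 ± 0.11 (log2, SE). Rps27 measured 122, 125 and 126 CPM at E8 and 90.3, 66.4 and 101 at E8.5 (−0.54 ± 0.13, adjusted p 0.0518). In both genes the stages did not overlap, and E8.5 replicate 2 was the lowest library. DESeq2 called 65 members lower (7.99% of all genes), edgeR with small RNA rows left out called 8 (1.8% of all genes), and edgeR without E8.5 replicate 3 called 76 (15.7% of all genes). The call therefore depended on the tool and on 1 library, and no member is reported as changed over this step.

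Rps16, a small-subunit protein with a tail near the tRNA sites, had the one positive difference (0.23 ± 0.24, adjusted p 0.571). It measured 24.4, 49.8 and 47.2 CPM at E8 and 54.2, 42.2 and 46.0 at E8.5, so that replicate 1 of E8 alone was low. Without that library its difference was −0.03.

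From E8.5 to E9.5 the family rose almost as a block. Of 80 members 72 rose, where 18.4% of all genes tested rose and 18.5% fell, and none fell. The median log2 fold change of the 80 was 0.60, a 1.52-fold difference, beside −0.03 for all genes. In 69 members all 3 E9.5 libraries lay above all 3 E8.5 libraries, against 22.4% of all genes. Both subunits took part, with 42 of 48 large-subunit and 30 of 32 small-subunit members called. Without E8.5 replicate 2 the count was 66 (13.9% of all genes rose), and without replicate 3 it was 76 (23.5%).

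The steepest rises were in Rps26 and Rps27. Rps26, which contacts mRNA upstream of the start codon and is mutated in some families with Diamond-Blackfan anaemia, measured 90.3, 89.6 and 129 CPM at E8.5 and 199, 215 and 223 at E9.5. All E9.5 libraries were above all E8.5 libraries, and the log2 fold change was 1.04 ± 0.13 (adjusted p 0.000236). Rps27 went from 66.4 to 101 CPM across the E8.5 libraries to 154, 181 and 185 CPM (1.01 ± 0.13, adjusted p 0.000244). The large-subunit members Rpl34 (0.96), Rpl35 (0.92) and Rpl31 (0.91) followed. RPL35 and RPL31 sit at the rim of the exit tunnel through which the new chain leaves. Rpl35 measured 135, 106 and 161 CPM at E8.5 against 230, 259 and 272 at E9.5, again without overlap. Its interval overlaps Wdr38 and the 2 genes share reads, so the split between them is uncertain.

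The members chosen for known roles in disease or regulation rose as well. RPL5 and RPL11 form the particle with 5S ribosomal RNA that binds the p53 inhibitor MDM2: Rpl5 rose by 0.67 ± 0.13 and Rpl11 by 0.67 ± 0.12. Rps19, the gene most often mutated in Diamond-Blackfan anaemia, rose by 0.51 ± 0.12, from 170, 132 and 183 CPM to 208, 233 and 249. Rps24 (0.71), Rps7 (0.68), Rpl35a (0.57) and Rps10 (0.38), mutated in the same disease, also rose, as did Rps14 (0.70). Rpl35a overlaps Gm17106, whose row has 151% as many counts, and reads of the 2 may be shared. Rps6, whose protein is phosphorylated downstream of mTOR, rose by 0.66 ± 0.12. Rpl38 and Rpl10a, linked to selective translation of some mRNAs, rose by 0.58 ± 0.12 and 0.64 ± 0.11. Rps27a, whose product is fused to ubiquitin, rose by 0.66 ± 0.12. Rpsa, which also serves as a laminin receptor, rose by 0.61 ± 0.14. With the counts of -ps rows added to their parents, the calls of Rps19 (0.19, adjusted p 0.251) and Rps10 (0.25, adjusted p 0.093) were lost. That of Rps10 was lost as well with the stages compared alone and without E9.5 replicate 2 or 3.

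The 8 members that did not pass were Rpl29, Rpl39, Rpl3l, Rpl6, Rpl6l, Rplp2, Rps16 and Rps9. Of the stalk genes, Rplp1 measured 300, 242 and 331 CPM at E8.5 and 424, 485 and 519 at E9.5 and rose by 0.71 ± 0.12, and Rplp0 rose by 0.43 ± 0.12, a call lost with the stages compared alone and without E9.5 replicate 2 or 3 (adjusted p 0.0542 to 0.073). Rplp2 measured 145, 127 and 174 CPM and then 163, 169 and 174, which overlapped (0.18 ± 0.11, adjusted p 0.212). Rpl29, a basic protein of the large subunit, measured 65.7, 52.0 and 69.6 CPM and then 58.4, 64.7 and 68.9 (0.04 ± 0.10). Rpl6 measured 379, 308 and 425 CPM and then 427, 406 and 477 (0.24 ± 0.13, adjusted p 0.164). The pseudogene Rpl6l had the lowest fold change of the family (−0.09 ± 0.13). Whether these differ from the rest of the family between E8.5 and E9.5 was not tested.

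**Figure D2:**
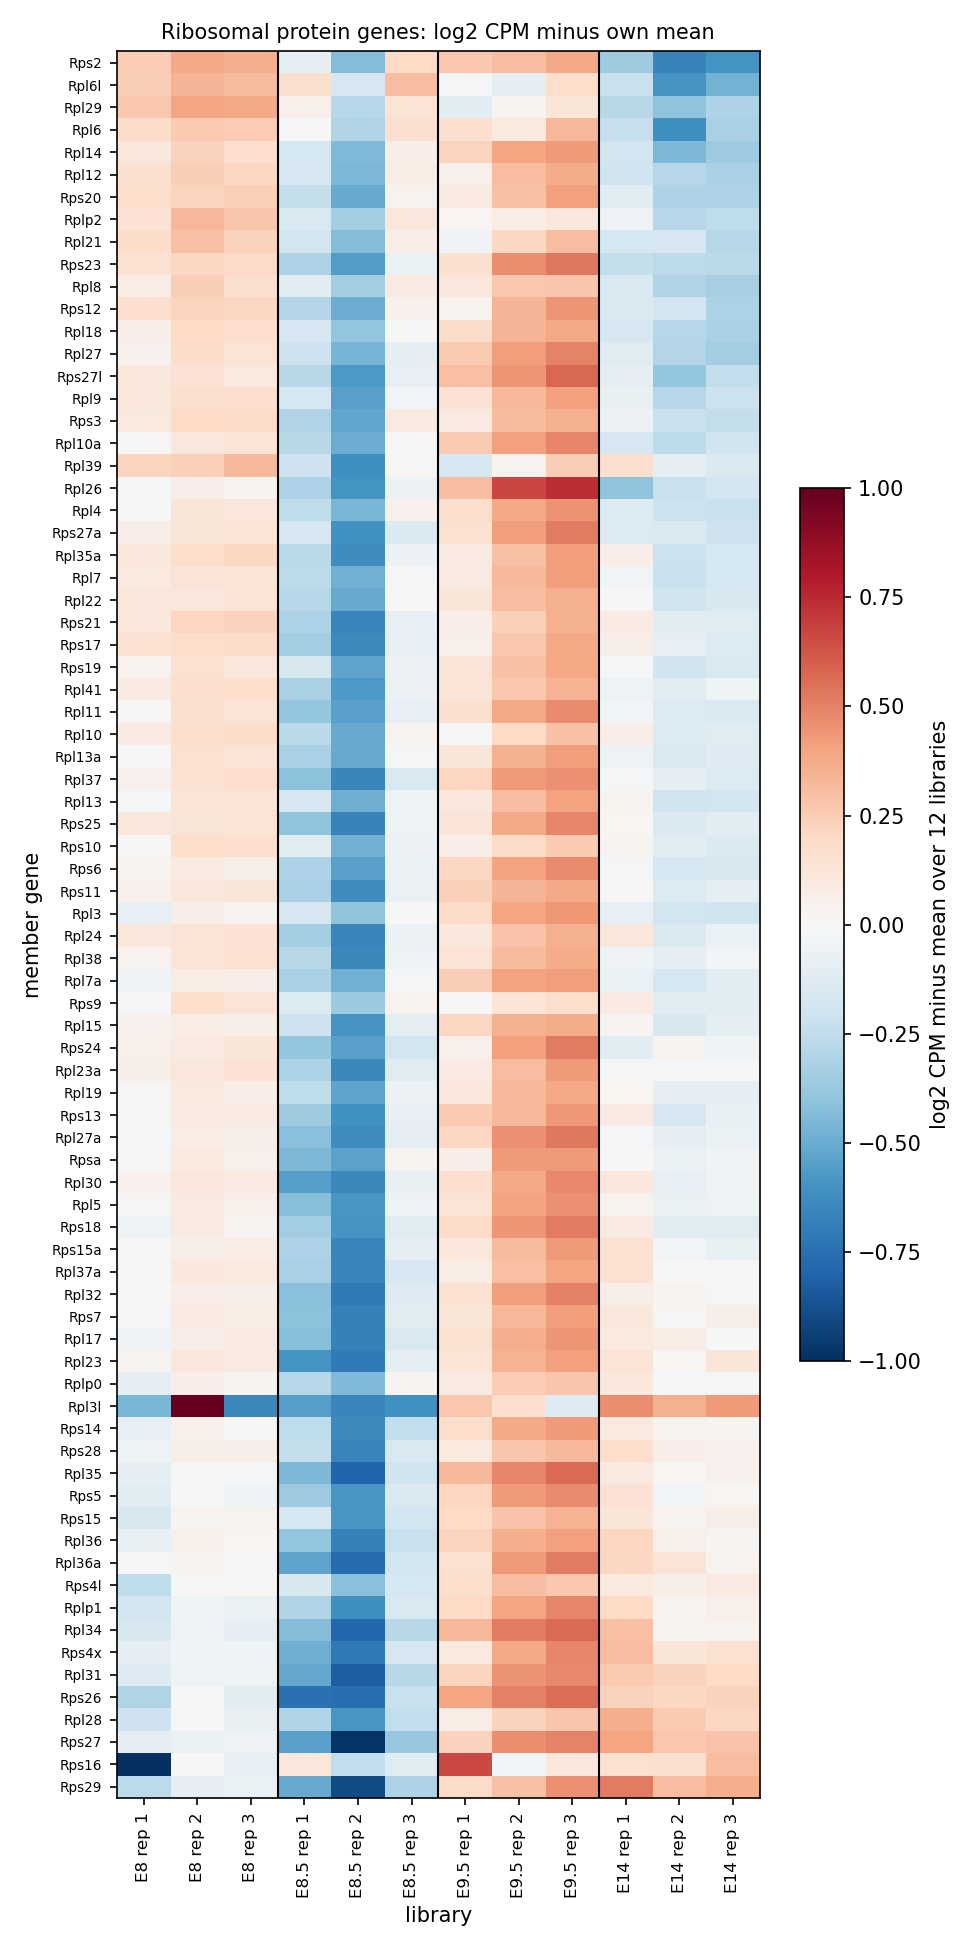
Level of 78 of the 80 members (rows) in each of the 12 libraries (columns), as log2 CPM minus the gene's own mean, red above and blue below. Rows run from the lowest to the highest fold change from E8 to E14 relative to the family, and colours saturate at a difference of 1. The E8.5 columns are mostly blue, replicate 2 the most, the E9.5 columns mostly red, and Rps16 in E8 replicate 1 and Rpl3l in E8 replicate 2 stand out.

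The promoters of members at both ends of this range are shown to set the starts of members with unlike changes side by side. RefSeq promoter windows (GRCm38.p6), from 250 bases before to 50 bases after each annotated start, were matched by symbol for 58 of 80 members. A pyrimidine run was a C followed by at least 5 C or T on the gene's strand, within 25 bases of the annotated start. It was found in 40 of 58 members (69.0%) against 38.5% of 27025 genes with a window. CCGGAAG, a form of the site bound by ETS family factors, lay on either strand of the window in 24 of 58 (41.4%) against 9.93% of genes. TATAA between 40 and 15 bases before the start was found in 4 of 58 (6.90%) against 4.22%. A match is a description of letters and not a site. Below are 60 bases before to 20 bases after the start, 5′ to 3′ on the gene's strand, with complete pyrimidine runs in capitals. Rps26 and Rps27 rose most to E9.5, Rpl28 rose from E8 to E14, Rps2 and Rpl14 were among those that fell most to E14, Rpl15 has a run of 17 bases and Rps4x has none in this window.
Rps26 (chr10:128626487-128626566, minus strand): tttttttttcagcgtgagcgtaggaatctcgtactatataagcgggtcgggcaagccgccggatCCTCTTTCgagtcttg
Rps27 (chr3:90213629-90213708, minus strand): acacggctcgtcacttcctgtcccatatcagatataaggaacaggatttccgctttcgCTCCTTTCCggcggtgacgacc
Rpl28 (chr7:4792905-4792984, plus strand): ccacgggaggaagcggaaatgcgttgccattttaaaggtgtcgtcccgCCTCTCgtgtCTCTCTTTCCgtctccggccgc
Rps2 (chr17:24720003-24720082, plus strand): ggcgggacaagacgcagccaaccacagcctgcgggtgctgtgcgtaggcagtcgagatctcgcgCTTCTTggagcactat
Rpl14 (chr9:120571457-120571536, plus strand): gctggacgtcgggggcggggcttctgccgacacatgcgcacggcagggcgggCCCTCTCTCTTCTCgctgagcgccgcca
Rpl15 (chr14:18270967-18271046, minus strand): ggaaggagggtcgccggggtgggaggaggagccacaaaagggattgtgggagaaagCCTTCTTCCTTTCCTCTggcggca
Rps4x (chrX:102189372-102189451, minus strand): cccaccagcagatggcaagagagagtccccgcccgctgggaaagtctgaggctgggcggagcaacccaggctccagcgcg

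From E9.5 to E14 the family fell, in part. Of 80 members 48 fell, where 24.6% of all genes tested fell and 25.4% rose, and none rose. The median log2 fold change of the 80 was −0.36 beside 0.01 for all genes, and in 61 members all 3 E14 libraries lay below all 3 E9.5 libraries, against 30.7% of all genes. In the large subunit 32 of 48 fell and in the small subunit 16 of 32. Without E9.5 replicate 3 the count was 25, where 20.7% of all genes fell, and without each other E9.5 or E14 library in turn it was 32 to 54, where 20.5% to 23.1% of all genes fell. Of the 72 members that had risen from E8.5 to E9.5, 45 then fell and 27 did not pass the test. In all 70 of 80 members had their highest stage mean at E9.5, 7 at E8 and 3 at E14. Neither this count nor that of genes that rose and then fell was taken over all genes, so how far they exceed the background is not known.

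The deepest falls were in Rps2 and Rpl26. Rps2 measured 771, 793 and 834 CPM at E9.5 and 501, 403 and 424 at E14, without overlap, and fell by 0.85 on the log2 scale (SE 0.14, adjusted p 0.00034). Rpl26, whose protein lies at the exit tunnel and also binds p53 mRNA, measured 233, 298 and 313 CPM and then 142, 161 and 165 and fell by 0.85 (SE 0.14, adjusted p 0.000299). Rpl14 (−0.68), Rps27l (−0.68) and Rps23 (−0.65) came next. RPS23 lies at the decoding centre. Rpl10a fell by 0.60, Rps27a by 0.54, Rps6 by 0.48, Rpl11 by 0.45 and Rpl5 by 0.36. Rps19 (−0.39), Rps24 (−0.38), Rpl35a (−0.38) and Rpl38 (−0.34) fell as well. The calls of Rpl5, Rps19, Rps24, Rpl35a and Rpl38 were lost without E9.5 replicate 3 (adjusted p 0.0572 to 0.124), and those of all but Rps19 also without E9.5 replicate 2 and without at least 1 of the E14 libraries. Those of Rps24, Rpl35a and Rpl38 were lost too with -ps counts added (adjusted p 0.0762 to 0.213). Rpsa (−0.35, adjusted p 0.0598), Rps14 (−0.27, 0.055), Rps10 (−0.25, 0.0799) and Rps7 (−0.23, 0.145) did not pass. Among the stalk genes Rplp0 (−0.18), Rplp1 (−0.27) and Rplp2 (−0.26) did not pass.

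At the other end, after the sparsely counted Rpl3l (0.30 ± 0.45, not called), Rps29 measured 164, 176 and 197 CPM at E9.5 and 206, 178 and 185 at E14, a difference of 0.08 ± 0.13. RPS29 is a small zinc-binding protein of the head of the small subunit. Rpl28 measured 128, 143 and 147 CPM and then 156, 146 and 140 (0.08 ± 0.10). Rpl28 overlaps Ube2s on the opposite strand, whose row has 97.2% as many counts, so reads of the 2 genes may be shared. Rpl39 (−0.07 ± 0.15) and Rps27 (−0.08 ± 0.13) were also near 0, and in these 4 genes the 2 stages overlapped. A p that misses the threshold does not show that they stayed level.

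**Figure D3:**
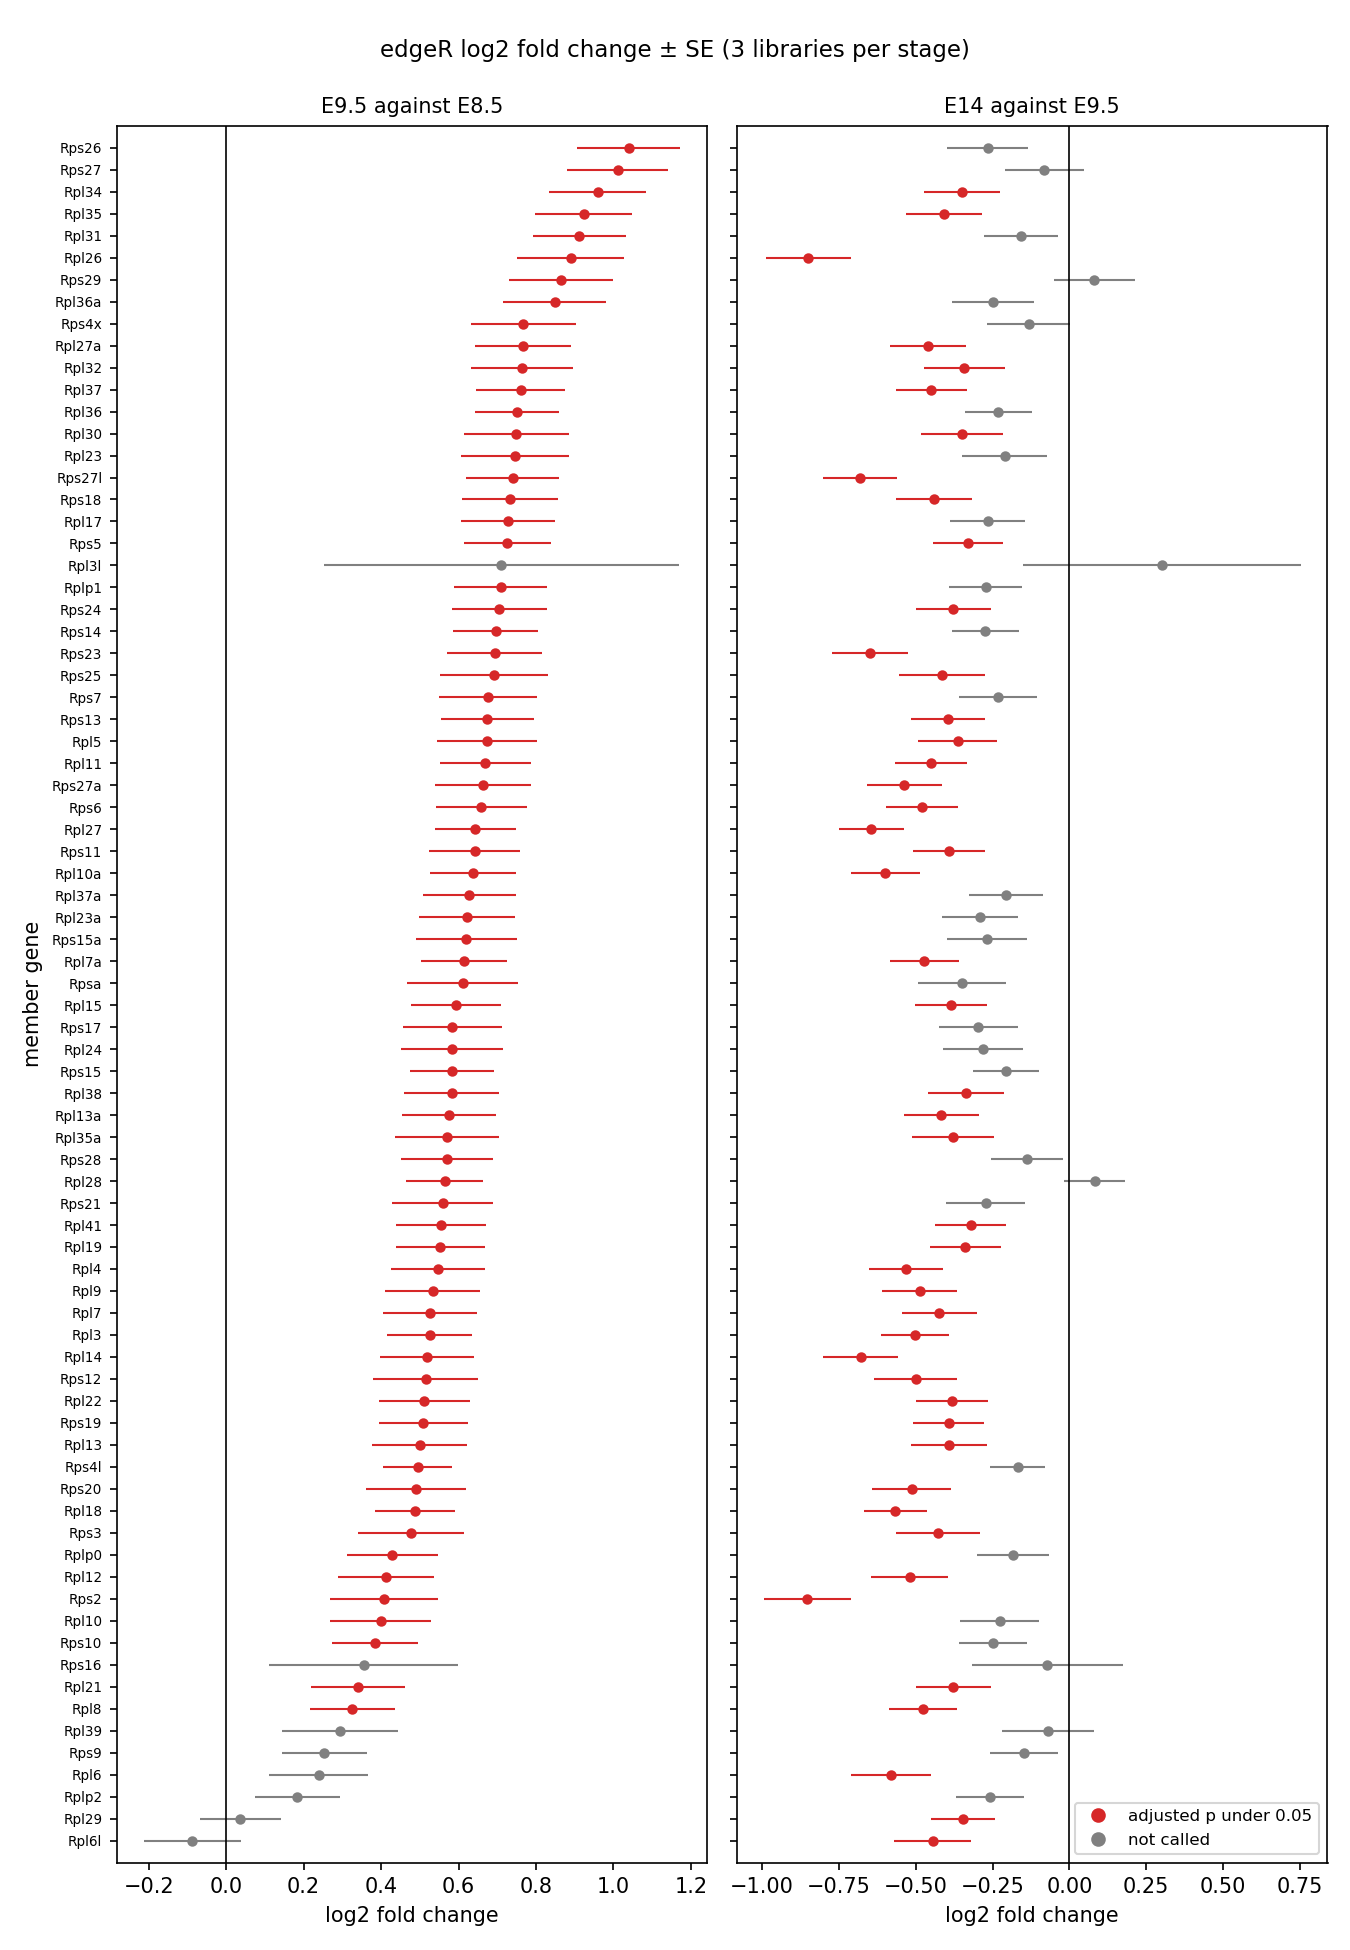
edgeR log2 fold change (x axis) with its SE for 78 of the 80 members (y axis), from E8.5 to E9.5 on the left and from E9.5 to E14 on the right, in the order of the left panel. Red points passed an adjusted p under 0.05 (70 on the left and 47 on the right of those drawn). The points lie right of 0 on the left except Rpl6l (−0.09), and mostly left of 0 on the right, with Rps2 and Rpl26 lowest (−0.85 each).

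Over the whole span from E8 to E14, 18 members fell, 6 rose and 56 did not pass, with a median of −0.17 (all genes 0.04). Of all genes tested 31.5% rose and 29.2% fell. In 44 members all E14 libraries lay below all E8 libraries and in 14 above, against 35.5% and 36.9% of all genes. Rps2 fell by 0.87 (SE 0.14, adjusted p 0.000209), from 765, 832 and 822 CPM at E8. Rpl6l (−0.72), Rpl29 (−0.68), Rpl6 (−0.61) and Rpl14 (−0.50) fell too. Rps29 rose by 0.54 ± 0.13 (adjusted p 0.00403), from 120, 135 and 137 CPM at E8 to 178 to 206 at E14. Rps27 (0.39), Rpl28 (0.37) and Rps26 (0.35) rose as well. The calls of Rps29 and Rpl28 held in every setting tried. That of Rps27 was lost without any 1 of the E8 or E14 libraries (adjusted p 0.0506 to 0.0992). That of Rps26 was lost in 11 settings, among them each E14 library left out, DESeq2 (adjusted p 0.0509) and the counts of its -ps rows added (0.21, adjusted p 0.176). Without E8 replicate 1 or 3 or any 1 of the E14 libraries 2 members rose, where 26.6% to 29.0% of all genes rose.

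To see which members moved against the family, each was also set against the summed counts of all 80 members in its library, a relative scale on which some must lie above and some below. On this scale the median of all genes tested from E8 to E14 was 0.21, and 33.9% of them were called higher and 20.4% lower. Of the members 21 rose, 16 fell and 43 did not pass. The share of members that fell was thus near that of all genes, and the share that rose was below it. The SD of the log2 fold change over members was 0.27, and the median SE of a member was 0.07. In the large subunit 10 rose and 10 fell, and in the small subunit 11 rose and 6 fell.

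Rps2 supplied 3.68%, 3.73% and 3.73% of the family counts at E8 and 3.59%, 3.39% and 3.70% at E8.5. The share was 3.41%, 3.07% and 3.07% at E9.5, and 2.45%, 2.15% and 2.24% at E14, which lay below all earlier libraries. Its fall relative to the family was 0.71 (SE 0.08, adjusted p 2.6e-05), and with -ps counts added it fell by 0.56. Rps29 supplied 0.578%, 0.605% and 0.623% at E8 and 1.01%, 0.95% and 0.979% at E14. It rose by 0.70 ± 0.08 relative to the family (adjusted p 1.5e-05), and all 3 E14 libraries lay above the other 9. Rps27 supplied 0.589%, 0.561% and 0.574% at E8 and 0.843%, 0.844% and 0.845% at E14, a rise of 0.55 ± 0.07 (adjusted p 7.67e-05). Rpl29 supplied 0.368% to 0.374% at E8 and 0.255% to 0.27% at E14 and fell by 0.52 (SE 0.07). Its step lay between E8.5 (0.351% to 0.393%) and E9.5 (0.25% to 0.259%). Rpl6l fell by 0.56 (SE 0.09), from 0.432% to 0.435% down to 0.271% to 0.32%.

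Among the members chosen for their roles, Rps26 (0.52), Rplp1 (0.35), Rps14 (0.22), Rplp0 (0.19) and Rps7 (0.18) rose relative to the family, and Rplp2 (−0.28) fell. The calls of Rps14, Rplp0 and Rps7 were lost without any 1 of the E8 or E14 libraries (adjusted p 0.0534 to 0.142), and that of Rplp2 with -ps counts added (−0.18, adjusted p 0.0641). Rps16 was called at the edge (0.69 ± 0.27, adjusted p 0.0497), and without the low replicate 1 of E8 (0.117% of family counts against 0.223% and 0.214%) it was 0.45 with an adjusted p of 0.159. Its call was lost in 12 settings in all, any 1 E14 library left out among them.

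**Figure D4:**
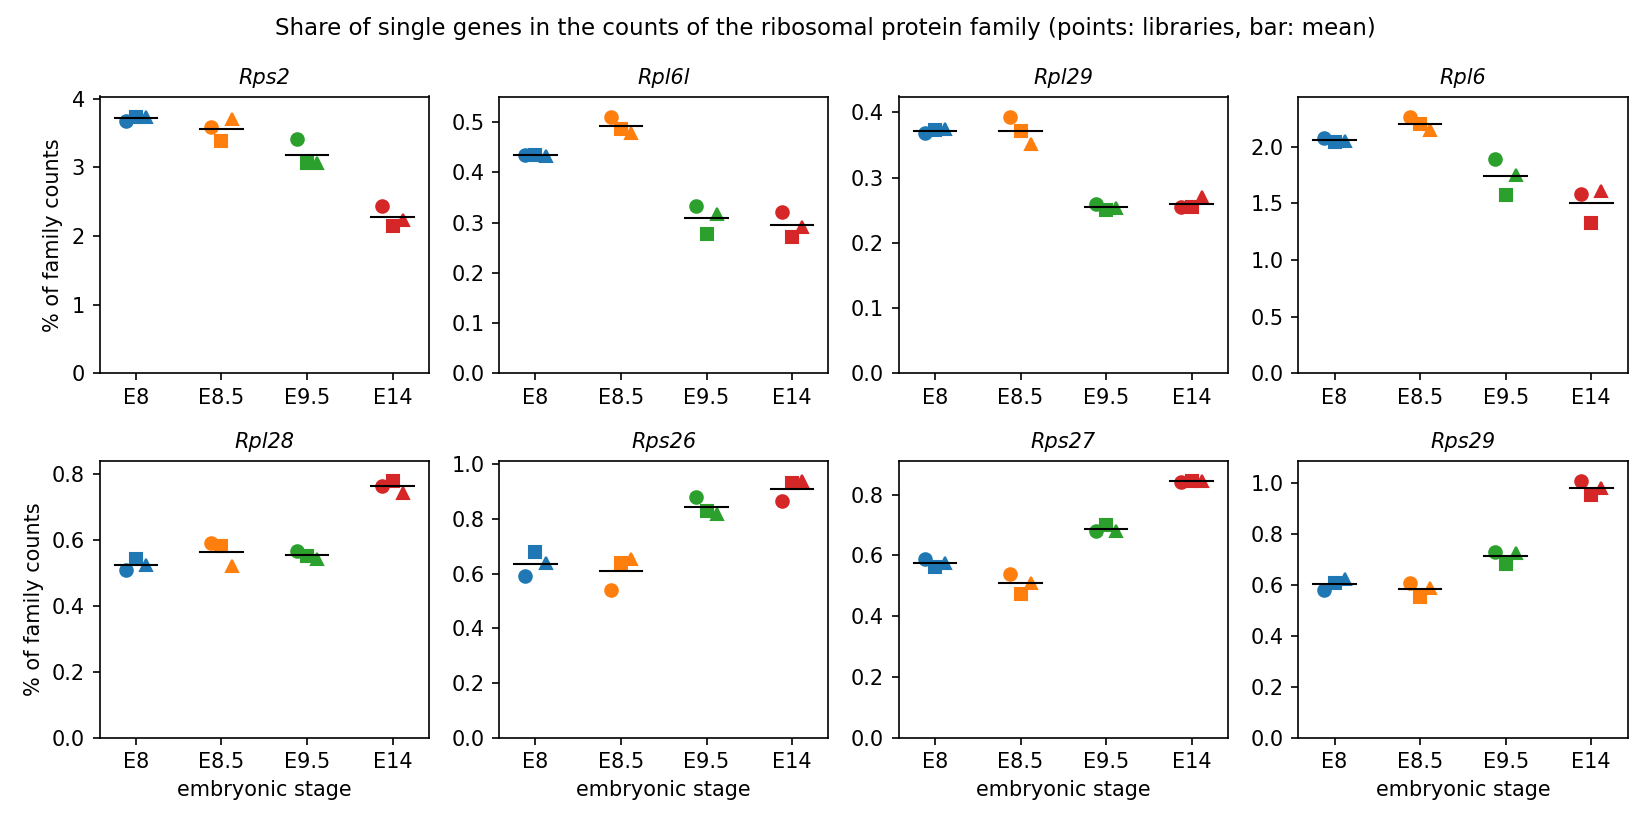
Share of the family counts (y axis, %, from 0) by stage for 4 members that fell (top row) and 4 that rose (bottom row) from E8 to E14 relative to the family, with 1 point per library and the bar at the mean of 3. Rps2 went from 3.68% to 3.73% at E8 down to 2.15% to 2.45% at E14, and Rps29 from 0.578% to 0.623% up to 0.95% to 1.01%.

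Paralogue pairs gave the following. Rps27 and Rps27l encode near-identical proteins, and Rps27l is known as a p53 target. Both rose to E9.5 (1.01 and 0.74 ± 0.12), but from E9.5 to E14 Rps27l fell by 0.68 (SE 0.12), from 54.7, 60.5 and 66.4 CPM to 41.7, 34.0 and 37.6, while Rps27 was at −0.08. Relative to the family from E8 to E14, Rps27 rose and Rps27l fell by 0.19 (SE 0.07, adjusted p 0.0443). The call of Rps27l on this scale was lost in 11 settings, among them small RNA counts subtracted (−0.14, adjusted p 0.119), -ps counts added (−0.10, adjusted p 0.296) and any 1 E8 library left out. The difference between the 2 genes was not itself tested. Rpl3 fell to E14 by 0.50 (SE 0.11), from 553, 636 and 653 CPM to 458, 423 and 420. Rpl3l, its muscle paralogue, stayed at 0.166 to 0.661 CPM in all libraries, with no call. Its highest library was E8 replicate 2, with 77 counts against 18 to 31 in the other 11. Rps4x, on the X chromosome, and the pseudogene Rps4l both rose to E9.5 (0.77 ± 0.14 and 0.49 ± 0.09). Rps4l overlaps Tmtc1, whose row has more counts, and its reads cannot be assigned. Rpl10 (0.40), Rpl22 (0.51), Rpl7 (0.53) and Rpl36a (0.85) rose to E9.5, the call of Rpl10 being lost without E8.5 replicate 1 or 2 or E9.5 replicate 2 or 3, and their paralogues outside the name rule are given below.

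Rows named as pseudogenes of the family share sequence with the members, and how reads that map to several places were counted is not given in the sources used here. The 275 -ps rows took 29.8% to 30.5% of the counts of members and -ps rows together at E8 and E8.5, and 24.9% to 25.3% at E9.5 and E14. With the counts of 273 such rows added to their 59 parents, 64 members rose from E8.5 to E9.5, where 18.4% of all genes rose. From E9.5 to E14 45 members then fell, where 24.5% of all genes fell. The part of the pseudogene shift in the rise of single members was not tested otherwise.

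Small RNA genes lie inside many members. Their reads were taken to be counted in both rows, which the sources used here do not state. In all 31 members enclosed 63 small RNA rows, of which 62 were tested. The summed counts of these rows were 50.4% of the counts of Rps12, 42.3% of those of Rpl13a and 41.4% of those of Rpl23a, and over 20% in 18 members. In each of the 31 the member had more counts than its small RNAs in all 12 libraries. For the whole family they made up 9.70% of the E8 counts and 9.75% of the E8.5 counts, then 12.5% and 12.8% at the later 2 stages. From E8.5 to E9.5, 54 of the 62 small RNAs rose and 8 did not pass, with a median of 0.91. From E9.5 to E14, 39 fell, 1 rose and 22 did not pass, with a median of −0.38. Of all genes tested 18.4% rose and 18.5% fell to E9.5, and 25.4% rose and 24.6% fell to E14.

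Rpl13a shows the effect. Its protein belongs to the large subunit and is known for a separate role in silencing inflammatory mRNAs. Of the box C/D snoRNAs in its introns, 3 are printed with 1 of Rps12. Both host rows had a lower fold change to E9.5 with the counts of all their small RNAs subtracted together. The part of any 1 snoRNA was not tested. The printed sequences are GENCODE M21 transcripts on GRCm38, 5′ to 3′, written with T. TGATG of the C box and CTGA of the D box, the elements that bind the core proteins, are in capitals.
Snord32a (in Rpl13a, chr7:45127382-45127464, minus strand): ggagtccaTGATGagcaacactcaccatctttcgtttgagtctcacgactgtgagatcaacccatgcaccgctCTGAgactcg
Snord34 (in Rpl13a, chr7:45126601-45126670, minus strand): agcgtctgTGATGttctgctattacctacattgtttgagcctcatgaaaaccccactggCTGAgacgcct
Snord35a (in Rpl13a, chr7:45126346-45126435, minus strand): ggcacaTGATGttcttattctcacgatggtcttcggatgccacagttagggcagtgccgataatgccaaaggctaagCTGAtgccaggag
Snord100 (in Rps12, chr10:23785750-23785823, minus strand): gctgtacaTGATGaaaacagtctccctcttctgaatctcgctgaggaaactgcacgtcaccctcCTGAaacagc
Snord32a measured 17.4, 15.3 and 21.9 CPM at E8.5 and 52.6, 57.2 and 62.1 at E9.5, and rose by 1.65 ± 0.13 (adjusted p 1.87e-05). Snord35a rose by 1.16 ± 0.12, Snord34 by 0.97 ± 0.10 and, in Rps12, Snord100 by 0.91 ± 0.13, each without overlap of the stages. The fourth small RNA row counted in Rpl13a, Mir5121, overlaps Snord33 and stood for both (0.80 ± 0.11). The host row Rpl13a, which also overlaps Flt3l, measured 342, 302 and 421 CPM at E8.5 and 466, 548 and 573 at E9.5 and rose by 0.57 ± 0.12. With the small RNA counts subtracted it was 0.19 ± 0.13 (adjusted p 0.268). The small RNA part of the row was 35.2%, 35.0%, 50.3% and 52.7% at the 4 stages in order.

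The same subtraction took Rps12 from 0.52 to −0.02, Rpl21 from 0.34 to 0.16 and Rpl10 from 0.40 to 0.33 between E8.5 and E9.5, and these 3 and Rpl13a were among 5 members whose call it ended. The other 67 calls held, where 18.4% of all genes rose, and the family median was 0.57 in place of 0.60. From E9.5 to E14 the subtraction left 48 members that fell, where 24.5% of all genes fell. Relative to the family from E8 to E14 the subtracted values were −0.81 for Rps12 and −0.45 for Rpl13a, against −0.25 and −0.04 as deposited. Rps12 at −0.81 then stood below Rps2, the lowest member as deposited, which was at −0.66 after the same subtraction. Reads of the host's own introns within the small RNA intervals are subtracted with them.

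**Figure D5:**
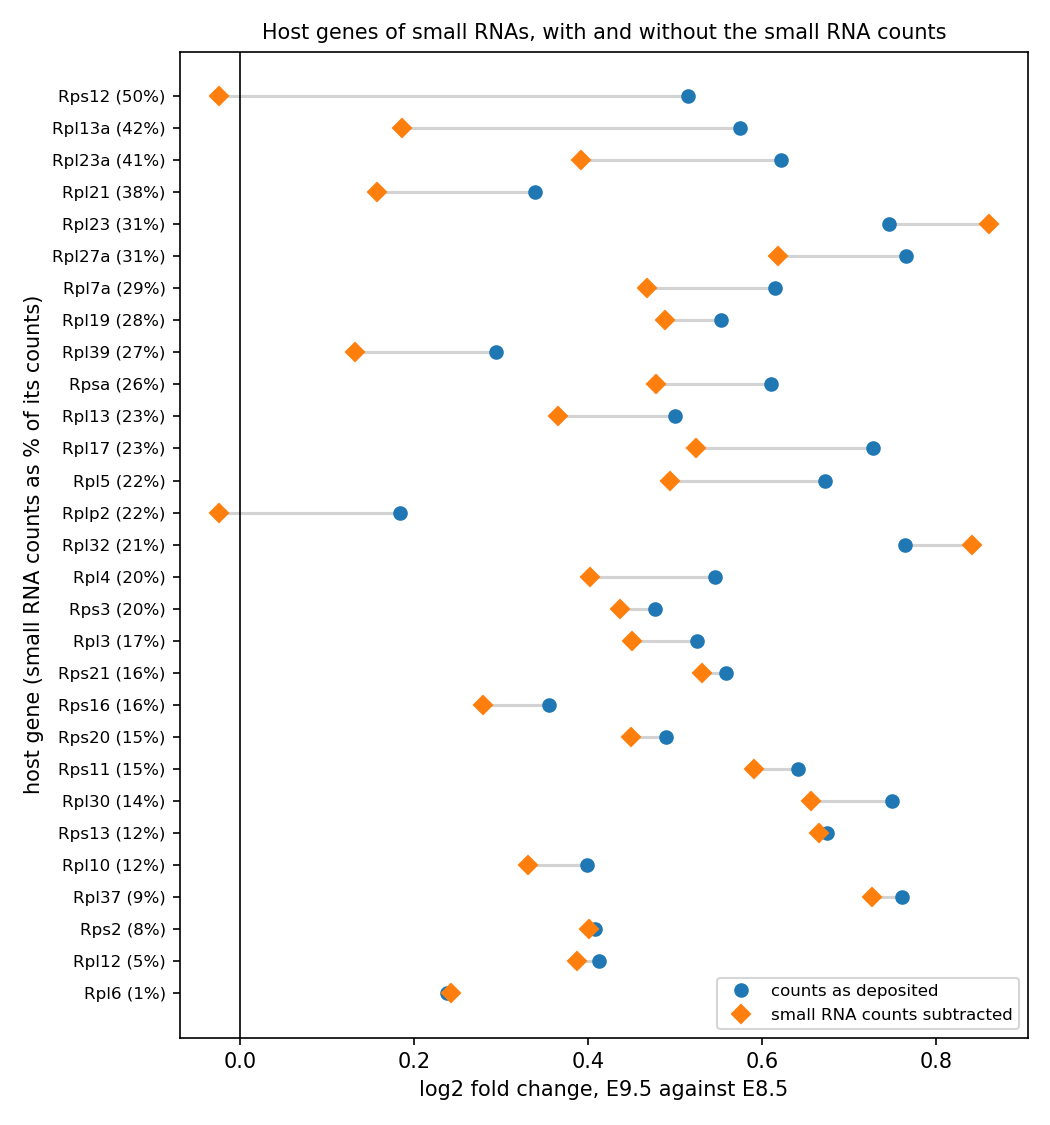
log2 fold change from E8.5 to E9.5 (x axis) of 29 of the 31 members that enclose small RNA genes (y axis, with the small RNA counts as % of the row's counts), for the counts as deposited (circles) and with the small RNA counts subtracted (diamonds). Rps12 and Rplp2 moved to −0.02 and Rpl13a from 0.57 to 0.19, whereas rows with a small share such as Rps2 and Rpl6 hardly moved.

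Ribosomal protein genes outside the name rule rose and fell at the same steps. Of 7 tested, 6 rose from E8.5 to E9.5 (85.7%, against 18.4% of all genes) and 6 fell from E9.5 to E14 (85.7%, against 24.6%). From E8 to E14, 1 rose (14.3%, against 31.5%) and 2 fell (28.6%, against 29.2%). Rpl36al (0.80), Rpl22l1 (0.78) and Fau (0.76), which encodes RPS30, rose to E9.5. Rpl22l1 fell to E14 by 0.88 and Rpl7l1 by 0.62.

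Genes that build ribosomes fell at the last step. Of 29 ribosome biogenesis factors 10 rose from E8.5 to E9.5 (34.5%, against 18.4% of all genes). From E9.5 to E14, 28 fell (96.6%, against 24.6%), with a median of −0.94, and from E8 to E14, 25 fell (86.2%, against 29.2%). Npm1, a nucleolar chaperone, averaged 640 ± 35.0 CPM at E9.5 and 223 ± 9.98 at E14 (SD, n = 3) and fell by 1.52 (SE 0.15). Gnl3 fell by 1.60, Nop56, a core protein of box C/D snoRNA particles, by 1.41 and Nhp2, of the box H/ACA particles, by 1.29. Of 14 genes of the RNA polymerase I machinery, which transcribes ribosomal RNA, 8 fell to E14 (57.1%) and 1 rose (7.14%, against 25.4% of all genes). Their median was −0.47. Polr1b, the second largest subunit, fell by 1.24, and Polr1e rose by 0.94 ± 0.08.

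Of 19 genes, most of them translation factors, whose RNAs carry the TOP motif or are classed with such RNAs, 8 rose to E9.5 (42.1%). At the step to E14, 13 fell (68.4%) and 1 rose (5.26%), with a median of −0.43. Eef1a1, the general elongation factor, rose to E9.5 by 0.64 ± 0.13. Eef1a2, the form that replaces it in adult heart and muscle, averaged 2.95 and 2.41 CPM at the first 2 stages, 6.60 at E9.5 and 85.5 at E14, and rose over the last step by 3.69 ± 0.15. Of 16 genes that control ribosome synthesis, 2 rose (12.5%) and 5 fell (31.25%) to E9.5, and 6 fell (37.5%) to E14. Of all genes tested 18.4% rose and 18.5% fell to E9.5, and 25.4% rose and 24.6% fell to E14. Mycn fell to E14 by 1.07 and Larp1, which binds TOP mRNAs, by 0.60. Of 10 genes of the p53 pathway 6 rose (60%) and 2 fell (20%) to E9.5, led by Ccng1 (1.47 ± 0.15). At the step to E14, 2 rose (20%) and 2 fell (20%), both below the shares of all genes. Among them Cdkn1a rose by 1.20 ± 0.19 and Trp53 fell by 0.49 to E14.

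The mitochondrial ribosomal proteins served as a family for comparison. Of 77, 62 rose (80.5%, against 18.4% of all genes) and 2 fell from E8.5 to E9.5 (median 0.44). From E9.5 to E14, 20 fell (26.0%, against 24.6%) and 3 rose (3.90%, against 25.4%), with a median of −0.06. From E8 to E14, 25 rose (32.5%, against 31.5%) and 8 fell (10.4%, against 29.2%), with a median of 0.15. The shares that fell to E14 and that rose from E8 to E14 were thus near those of all genes. The cytoplasmic family had medians of 0.60, −0.36 and −0.17 at the same steps. No test compared the families. From E8 to E8.5 none of the genes in these lists passed the edgeR test, and the count at an unadjusted p is given for the members alone.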

How the data were processed

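Total RNA of 12 libraries was measured as counts per gene row. The deposited table holds whole-number counts, per the file headers, and the authors' values are not normalised. Per the submitters' processing notes STAR 2.5.0 and Cufflinks 2.2.1 were used, with no role stated, and GRCm38, mm10 and hg38 are named as builds. Nothing in the sources used here gives the counting tool, its strand setting or its treatment of reads that map to several places. Rows of the mitochondrial chromosome had 0 counts.

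The test was edgeR 4.0.16 under R 4.3.3, a robust quasi-likelihood fit over 12 libraries with 1 mean for each stage, followed by F-tests of the stage contrasts. The filterByExpr rule kept 28846 genes, and TMM factors lay between 0.913 and 1.07. A call is an adjusted p (Benjamini-Hochberg, over all genes tested) under 0.05. SE are those of the log2 fold changes. CPM use TMM-scaled library sizes, and percentages of all counts use raw totals. The fit within the family used summed member counts as library size. On simulated data for E14 against E9.5 with 28140 genes, 96% of changes of 1 and 19% of changes of 0.5 (log2) were recovered, with 6 false calls. Every simulated gene had the same dispersion, set below the common dispersion of 0.0362 in the data. The simulated libraries differed in size alone. Recovery and false calls in the real libraries are therefore not known. Gene rows were matched to GENCODE M21 for types and exons. Of small RNA rows inside members that overlap each other, 2 were left out so that reads were counted once.

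Members and lists were chosen with earlier results of these data known. Named genes were paralogue pairs, the 5 highest and 5 lowest members per comparison, the stalk genes and Rpsa, members with known roles in disease or regulation, the 3 highest and 3 lowest called members relative to the family, and up to 4 called genes per list. Some genes are not reported here and are not drawn, but counts and medians over the family and lists include them. The lists were ribosomal proteins outside the name rule, biogenesis factors, RNA polymerase I, TOP genes, and Eef1a1 with Eef1a2. Growth control, the p53 pathway and mitochondrial ribosomal proteins were listed too. Markers were heart muscle, visceral endoderm and liver, erythroid, endothelium (320 to 537 CPM summed), leukocyte (185 to 237) and neural tube (0.378 to 2.36, Olig2 at 0 counts at E14). Alternatives were RLE factors, no filter, a replicate block, DESeq2 1.42.0, the stages compared alone, small RNA rows left out, small RNA counts inside members subtracted, offsets adjusted for gene span and each library left out in turn. Adding -ps counts to parents was chosen after seeing the data. Tables and figures used Python 3.11, pandas 2.3.3 and matplotlib 3.10.9.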

Additional observations from a re-analysis of the deposited data

How the results depend on the processing

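The rise of 72 members to E9.5 was 62 to 72 over RLE factors, no filter, DESeq2, the stages compared alone, span-adjusted offsets, small RNA rows left out or subtracted and added -ps counts, and 62 to 76 with 1 library left out. The 48 falls to E14 were 45 to 67 over the same settings and 25 to 65 with 1 library left out, the lowest without E9.5 replicate 3. From E8 to E8.5 the count of members lower was 0, but 8 with small RNA rows left out, 1 with small RNA counts subtracted, 65 by DESeq2 and 0 to 76 with 1 library left out, the highest without E8.5 replicate 3. From E8 to E14 members lower were 18, but 47 with the stages compared alone, 18 to 25 over the other settings, and 14 to 36 with 1 library left out (30 without E8.5 replicate 2 and 36 without E8.5 replicate 3). Members higher were 6, 4 to 8 over the other settings, and 2 to 6 with 1 library left out, with 2 without E8 replicate 1 or 3 or any E14 library. Relative to the family the 21 rises were 13 to 22 with 1 library left out (13 without E8 replicate 1), and 14 to 25 over the other settings (14 with no filter, 25 by DESeq2 and with the stages compared alone). The 16 falls were 11 to 18 with 1 library left out and 11 to 20 over the other settings. RLE factors do not apply there, since the fit uses no such factor. Of all genes tested 10.3% to 23.5% rose to E9.5 over these settings, 14.7% to 29.3% fell from E9.5 to E14 and 0% to 15.7% fell from E8 to E8.5. From E8 to E14, 17.8% to 35.1% fell and 19.2% to 34.7% rose. On the family scale 21.3% to 42.4% of all genes rose and 11.7% to 26.3% fell. The shares of all genes thus moved with the setting as well. The cause of these shifts was not tested. The labels do not say that replicate numbers pair the samples. Libraries with the same number had correlations of residuals from -0.0836 to 0.134, and with different numbers from -0.173 to 0.190. These residuals were centred within 3 libraries of a stage, so they cannot show whether the numbers pair samples. With the replicate block 70 members rose to E9.5, 47 fell to E14, 6 rose and 18 fell from E8 to E14, and 17 rose and 15 fell relative to the family, with 0 from E8 to E8.5. Of 76 calls on named members 52 held in every setting and 0 turned sign. Signs turned only in values without a call. With 1 library left out Rpl39 to E14 was −0.202 to 0.0359, Rps29 to E14 −0.0137 to 0.152, Rpl29 to E9.5 −0.0805 to 0.149, Rpl6l to E9.5 −0.211 to 0.0483 and Rps16 to E8.5 −0.0321 to 0.404. Rps27 to E14 was 0.0123 with span-adjusted offsets, and Rplp2 to E9.5 was −0.024 with small RNA counts subtracted. Counting depth was low for Rpl3l, at 18 to 77 counts a library.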
